A study of Mus musculus with 2 samples.

Results

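The immediate early and dissociation stress genes described here are 10 genes, followed over the cell types of the embryonic mouse dorsal telencephalon: *Fos*, *Fosb*, *Jun*, *Junb*, *Egr1*, *Ier2*, *Atf3*, *Dusp1*, *Hspa1a* and *Hspa1b*. They were taken by symbol from the feature table, which lists 32285 genes, and each symbol was found there once. The data are 2 single-cell libraries of wild-type (WT) embryos taken at embryonic day 14.5 from a mouse line with Eomes-Cre, called replicates 1 and 3 after the last digit of their titles. The design text calls them EomesMllt3 controls, and whether a WT embryo carries the Cre allele is not given in the sources used here. The study's methods give C57BL/6 J mice. Both libraries are control animals of that line and were made in the same way, from tissue digested with papain, so there is no treated group and no undissociated sample, and levels present in the tissue and levels acquired during dissociation cannot be told apart. The labels name the tissue as brain hemispheres and the protocol as dorsal telencephalon. With 2 libraries, p-values measure the spread between these 2 libraries, and the labels do not say whether they come from separate embryos, so that spread may be technical.

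Immediate early genes are transcribed within minutes of a growth factor, calcium or stress signal, without new protein synthesis, because SRF, its ternary complex partners and CREB are already present and are switched on by kinases. Their products are mostly transcription factors: FOS and FOSB pair with JUN or JUNB in the AP-1 dimer, ATF3 joins the same family, and EGR1 is a zinc finger activator. DUSP1 is a phosphatase that removes phosphates from MAP kinases and so limits the signal. *Hspa1a* and *Hspa1b* encode the inducible HSP70 chaperones and are switched on by HSF1 when proteins unfold. Enzymatic dissociation of tissue is well known to induce the same genes, and growth factor signalling induces them in progenitor cells.

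Promoter sequences from RefSeq (GRCm38.p6, the assembly also called mm10 and named in the submitters' processing notes) were found for 8 of the 10 genes. *Egr1* and *Ier2* are named only. The 4 below are shown as examples of windows with the motifs discussed here. Each runs from 250 bases before to 50 after the annotated start, in the direction of transcription. The capitals mark TGACGT (the core of the CREB site, either strand), TGACGTCA (the full site, which contains TGACGT on both strands) and GAANNTTC (a pair of facing heat shock units, the same on both strands).
Fos, chr12:85473640-85473939, plus strand: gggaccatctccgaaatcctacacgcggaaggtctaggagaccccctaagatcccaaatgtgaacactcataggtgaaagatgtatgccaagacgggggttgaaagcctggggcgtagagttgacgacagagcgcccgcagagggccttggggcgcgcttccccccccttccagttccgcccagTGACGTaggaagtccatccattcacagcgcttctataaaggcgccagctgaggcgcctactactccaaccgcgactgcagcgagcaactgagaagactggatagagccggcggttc
Dusp1, chr17:26508423-26508722, minus strand: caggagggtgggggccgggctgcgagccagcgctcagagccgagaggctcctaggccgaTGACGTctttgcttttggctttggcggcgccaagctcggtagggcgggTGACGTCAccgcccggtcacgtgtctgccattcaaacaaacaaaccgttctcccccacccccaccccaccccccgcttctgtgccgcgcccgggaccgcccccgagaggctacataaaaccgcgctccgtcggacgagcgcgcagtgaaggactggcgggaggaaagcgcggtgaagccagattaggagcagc
Hspa1a, chr17:34972107-34972406, minus strand: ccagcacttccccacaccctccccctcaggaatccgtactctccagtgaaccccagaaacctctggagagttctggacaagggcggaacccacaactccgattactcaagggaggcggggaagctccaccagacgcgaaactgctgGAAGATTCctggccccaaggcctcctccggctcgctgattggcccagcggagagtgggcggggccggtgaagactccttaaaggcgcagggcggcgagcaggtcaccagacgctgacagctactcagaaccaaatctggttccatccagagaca
Hspa1b, chr17:34959189-34959488, minus strand: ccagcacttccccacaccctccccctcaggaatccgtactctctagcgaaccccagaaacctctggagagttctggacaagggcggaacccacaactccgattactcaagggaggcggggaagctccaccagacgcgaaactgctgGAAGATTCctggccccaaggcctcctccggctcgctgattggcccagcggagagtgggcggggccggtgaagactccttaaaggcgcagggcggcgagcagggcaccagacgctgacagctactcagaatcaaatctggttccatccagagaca

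The *Fos* window held 1 TGACGT match, at position -66 from the start, and the *Dusp1* window held 3, at -191, -143 and -141, of which the last 2 are the strands of a single TGACGTCA. *Atf3* (gene at chr1:191170296-191183333) held 1 at -8. TGACGT was found in 7.51% of all 32851 promoters of the table and TGACGTCA in 1.79%. GAANNTTC was found once in *Hspa1a*, once in *Hspa1b* (both at -104) and once in *Jun* (-128; gene at chr4:95049036-95052222), against 7.86% of all promoters. TGACTCA (the AP-1 site, 5.2% of all promoters), TTCNNGAA (8.52%) and the CArG box of SRF (1.63%) had no match in any of the 8 windows, both strands searched. *Fosb* (gene at chr7:19302696-19310118) and *Junb* (chr8:84976909-84978748) had none of these motifs. A match is a description of the letters only, and sequence outside these windows was not searched. The *Hspa1a* and *Hspa1b* windows were identical at 296 of 300 bases, and the genes themselves are near-identical copies. Reads may have been split between them or lost in the authors' counting, so their separate values and their joint level are uncertain.

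Replicate 1 held 6163 barcodes and 64182006 UMIs and replicate 3 held 8870 barcodes and 93295807 UMIs. After filters on depth, mitochondrial share and doublets, 5184 and 6952 cells were kept. The libraries shared 23 barcodes, 16 of them among kept cells, out of 15033 in all. Cells were clustered without the 10 genes and without the related gene lists used below, and clusters were named from marker genes, with "-like" added. Projection neuron-like cells numbered 2730 and 3047, radial glial cell (RGC)-like cells 679 and 1546, intermediate progenitor cell (IPC)-like cells 621 and 1032, and MGE interneuron-like cells 335 and 220 (replicate 1, then replicate 3, here and below). Rarer classes were Cajal-Retzius-like (42 and 85), meningeal-like (50 and 146), pericyte-like (40 and 45), endothelial-like (24 and 39) and microglia-like cells (21 and 30). All fixed markers of each of these classes had UMIs in both libraries, although *Nkx2-1* was low in MGE interneuron-like cells (2.28 and 1.78 CPM). CGE interneuron-like cells (267 and 27) and LGE neuron-like cells (116 and 1) were much fewer in replicate 3 and had no comparison of their own. The part of this difference in make-up in the spread between the libraries was not tested. The microglia-like cluster was led by *Pf4*, *C1qb* and *Mrc1*, and *Pf4* and *Mrc1* are also genes of border macrophages. Levels are UMIs of a gene scaled to the total of the class (CPM), and they are compared between classes and not between genes.

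Together the 10 genes were low in neurons and IPC-like cells, higher in RGC-like cells and highest in the vascular, meningeal and microglia-like classes. Projection neuron-like cells summed to 103.8 and 111.4 CPM, IPC-like cells to 131.5 and 118.7, MGE interneuron-like cells to 134.9 and 134.5, and RGC-like cells to 448 and 443 CPM. The sum reached 623 and 558 CPM in meningeal-like, 760 and 1114 in endothelial-like, 872 and 1329 in pericyte-like and 2929 and 1508 in microglia-like cells. The neuronal and IPC-like ranges lay below the RGC-like range, and the RGC-like range below those of all 4 non-neural classes. Red blood cell-like cells, whose RNA is mostly globin, gave 21.8 and 34.6 CPM, which serves as a level for free RNA. Most of the RGC-like sum was *Jun* (322 and 306 CPM). The 4 non-neural classes were 2.6% and 3.74% of the kept cells, and they held from 7.18% (*Dusp1*, replicate 3) to 59.6% (*Fosb*, replicate 1) of the UMIs of a member.

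**Figure D1:**
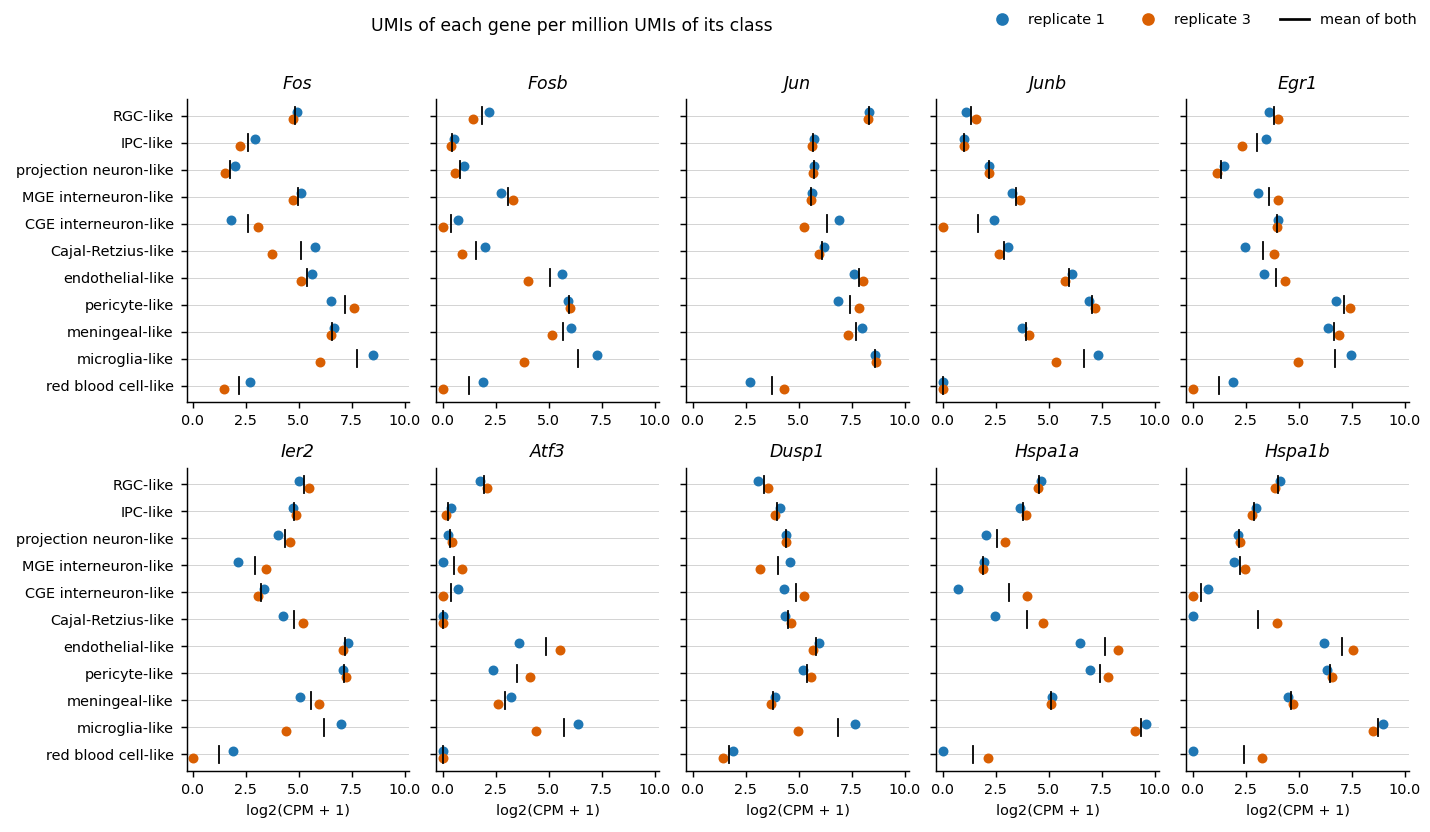
Each panel shows 1 gene; the x axis is log2(CPM + 1) and the y axis the class, with a point for each replicate and a black tick at the mean of the 2. *Jun* stands highest in RGC-like and microglia-like cells. Each of the other genes has its highest mean in 1 of the 4 non-neural classes, and for most of them the microglia-like replicates lie far apart.

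*Fos*, an AP-1 subunit often used as a mark of recent signalling, had 29.2 and 25.1 CPM in RGC-like cells (275 and 496 UMIs). IPC-like cells reached 6.67 and 3.61 CPM. Projection neuron-like cells had 2.96 and 1.84 CPM, against 5.44 and 1.73 CPM in red blood cell-like cells. The latter rest on 2 and 1 UMIs, under the floors of 8.15 and 5.19 CPM that 3 counts give. The IPC-like levels also lay under these floors. On the CPM scale, a difference from the level of free RNA was thus not detectable in IPC-like or projection neuron-like cells at this depth. Red blood cell-like cells were shallower, with median depths of 4881 and 3565.5 UMIs against 10179 and 9787.5 in IPC-like cells. As counts, 621 and 1032 IPC-like cells held 45 and 37 *Fos* UMIs, and 67 and 110 red blood cell-like cells held 2 and 1. Free RNA per cell was not compared. MGE interneuron-like cells were at 33.6 and 25.8 CPM, which overlapped the RGC-like range. CGE interneuron-like cells had 2.51 and 7.49 CPM, on 4 and 1 UMIs. Ordered by mean level the classes ran microglia-like, pericyte-like, meningeal-like, endothelial-like, Cajal-Retzius-like, MGE interneuron-like, RGC-like, IPC-like, CGE interneuron-like, red blood cell-like and projection neuron-like. The ranges of neighbours in that order did not overlap in only 2 places: meningeal-like cells lay above endothelial-like cells, and RGC-like cells above IPC-like cells. *Fosb*, its close relative, gave RGC-like cells 3.51 and 1.72 CPM and MGE interneuron-like cells 5.69 and 8.91 CPM, while IPC-like cells had 3 UMIs of it in each library (0.445 and 0.293 CPM).

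*Jun*, the main dimer partner of FOS, had a different distribution. RGC-like cells were at 322 and 306 CPM, IPC-like cells at 52.2 and 48.2, MGE interneuron-like cells at 47.8 and 47.2, and projection neuron-like cells at 51.95 and 50.7. The 3 last ranges lay between 47.2 and 52.2 CPM, and the RGC-like range lay above them. Other GABAergic cells of replicate 1 were higher, at 120 CPM in CGE interneuron-like and 117 CPM in LGE neuron-like cells. CGE interneuron-like cells of replicate 3 had 37.4 CPM, on 5 UMIs. *Jun* is the only member that was detected in most RGC-like cells: with every cell thinned to 3000 UMIs, 54.0% (95% Wilson interval 50.2 to 57.8) of 657 cells and 57.7% (55.2 to 60.2) of 1507 cells had a UMI of it. The unthinned shares were 90.3% and 88.9%. Thinned red blood cell-like cells gave 0 of 49 cells, which allows a share of up to 6.12%, and 6.35% of 63 cells; their unthinned median depths were 4881 and 3565.5 UMIs, against 12994 and 11928 in RGC-like cells. Intervals and floors cover counting error only.

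*Junb*, which can pair with FOS as JUN does, rose from 1.17 and 1.92 CPM in RGC-like cells to 3.59 and 3.47 CPM among projection neuron-like cells, the reverse order of *Jun*. *Dusp1* rose at each step: RGC-like cells had 7.55 and 10.9 CPM, IPC-like cells 16.3 and 13.7 and projection neuron-like cells 20.34 and 20.02 CPM. Neither of these pairs of ranges overlapped between RGC-like and projection neuron-like cells. *Atf3*, a stress-induced member of the ATF/CREB family, was sparse in neural cells, with 22 and 64 UMIs in RGC-like cells (2.34 and 3.24 CPM) and 2 and 1 UMIs in IPC-like cells. It had no UMI in Cajal-Retzius-like cells of either library, which allows levels of up to 4.46 and 2.64 CPM.

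*Egr1* (ENSMUSG00000038418, chr18:34861207-34864956), a direct target of the MAPK cascade, stood at 11.1 and 15.4 CPM for RGC-like cells, 10.1 and 4.1 CPM for IPC-like cells and 1.76 and 1.23 CPM for projection neuron-like cells. The 3 ranges did not overlap, but the RGC-like and IPC-like values of replicate 1 lay close together. *Ier2*, a nuclear protein gene of the early response (chr8:84661331-84662852), varied less along the lineage, with 30.8 and 43.7 CPM for RGC-like, 25.8 and 27.8 for IPC-like, 15.4 and 22.8 for projection neuron-like and 3.42 and 9.8 CPM for MGE interneuron-like cells. The last values rest on 6 and 11 UMIs.

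The HSP70 genes *Hspa1a* and *Hspa1b* were read together. RGC-like cells had 24.0 and 21.4 CPM of *Hspa1a*, IPC-like cells 11.7 and 14.1 and projection neuron-like cells 3.18 and 6.74 CPM, and these 3 ranges did not overlap. *Hspa1b* had 16.6 and 13.8, 6.97 and 5.95, and 3.4 and 3.71 CPM in the same order. Microglia-like cells stood far above all other classes, at 779 and 530 CPM of *Hspa1a* and 499 and 360 CPM of *Hspa1b*. In endothelial-like cells, replicate 3 was higher than replicate 1 for both copies (*Hspa1a* 87.8 and 311 CPM, *Hspa1b* 72.8 and 187 CPM).

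RGC-like cells were compared with IPC-like cells first, to place the genes along the lineage from radial glia through intermediate progenitors to neurons. Of the 10 members, 5 were higher in RGC-like cells (edgeR's quasi-likelihood test on summed UMIs, adjusted p under 0.05) where 21.9% of 15234 genes were higher, and 0 were lower where 21.4% of genes were lower; at an unadjusted p under 0.05 the counts were 6 and 1. *Jun* was higher by 2.55 ± 0.09 on the log2 scale (SE; adjusted p = 9.09e-07), *Fos* by 2.32 ± 0.29 (adjusted p = 0.000331), *Atf3* by 3.11 ± 0.56 (0.00242), *Fosb* by 2.31 ± 0.59 (0.0126) and *Hspa1b* by 1.12 ± 0.19 (0.00151), each in both replicates. These are 4 AP-1 and ATF genes and 1 copy of HSP70. The folds of *Atf3* and *Fosb* rest on 3 and 6 UMIs in IPC-like cells of both libraries together. The levels of these genes lay under the red blood cell-like floors given above in both classes. The median of the 10 was 0.99, against 0.00 over all genes. With the replicate as a block, *Ier2* (0.38, adjusted p = 0.0407) and *Hspa1a* (0.71, 0.0421) were also called higher and *Dusp1* lower (-0.72, 0.0404), 8 calls in all. DESeq2 called 5 members. With cells thinned to 3000 UMIs 2 were called, *Fos* (2.28, 0.00123) and *Jun* (2.6, 1.19e-06), while *Fosb* (1.63, 0.114) and *Hspa1b* (0.76, 0.0957) were not and *Atf3* did not enter that fit.

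Against projection neuron-like cells, 8 members were higher in RGC-like cells (29.6% of genes were higher) and 2 were lower (35.7% of genes were lower). The 8 included *Fos* (3.19 ± 0.27 on the log2 scale, adjusted p = 1.09e-05), *Egr1* (2.82 ± 0.39, 0.000257), *Atf3* (2.66 ± 0.42, 0.00052), *Jun* (2.37 ± 0.09, 1.09e-07), *Hspa1a* (1.92 ± 0.28, 0.000363) and *Hspa1b* (1.81 ± 0.17, 2.45e-05), with smaller differences of *Fosb* (1.38 ± 0.44, 0.0219) and *Ier2* (0.73 ± 0.24, 0.0248). The 2 that were lower were *Junb* (-1.29 ± 0.27, 0.00284) and the phosphatase gene *Dusp1* (-1.32 ± 0.25, 0.00164). Levels of *Junb*, *Fosb* and *Atf3* lay under the red blood cell-like floors given above in both classes. The members did not share 1 direction. With all classes in 1 fit *Fosb* (1.2, adjusted p = 0.0587) and *Ier2* (0.72, 0.0507) were no longer called, nor with thinned cells *Fosb* (0.89, 0.189) and *Junb* (-0.85, 0.0609). The median over members was 1.86, against -0.08 over all genes.

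IPC-like cells had more of 4 members and less of 1 than projection neuron-like cells. *Egr1* (1.96 ± 0.42 on the log2 scale, adjusted p = 0.0049), *Hspa1a* (1.22 ± 0.3, 0.00929), *Fos* (0.87 ± 0.32, 0.0494) and *Hspa1b* (0.69 ± 0.19, 0.0158) were higher, where 23% of genes were higher. Of these 4, *Fos* and *Hspa1b* were also called between RGC-like and IPC-like cells, while *Egr1* (0.86, adjusted p = 0.109) and *Hspa1a* (0.7, 0.0839) were not. *Junb* was lower (-1.82 ± 0.32, 0.00154), where 26.1% of genes were lower. The difference of *Jun* was -0.18 ± 0.09 (adjusted p = 0.12). The call of *Fos* stood close to the threshold and was lost with doublets kept (0.76 on the log2 scale, adjusted p = 0.0671), at Leiden resolution 0.5 (1.0, 0.0978), with all classes in 1 fit (0.81, 0.257) and with cells thinned to 3000 UMIs (0.37, 0.543). That of *Hspa1b* was lost with doublets kept (0.52, 0.0897), with all classes in 1 fit (0.65, 0.164) and with thinned cells (0.7, 0.114). The *Fos* and *Junb* levels of both classes lay under the red blood cell-like floors given above, as did projection neuron-like *Egr1*. *Hspa1b* in both classes lay below the 8.64 CPM (5 UMIs) of red blood cell-like cells of replicate 3. For *Fos*, *Junb* and *Hspa1b* a difference from the level of free RNA was thus not detectable in either class on the CPM scale. The median over members was 0.08, against -0.02 over all genes.

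MGE interneuron-like cells, GABAergic neurons born in the ventral telencephalon, had more *Fos*, *Fosb*, *Egr1* and *Junb* and less *Ier2* than projection neuron-like cells. *Fos* (3.42 ± 0.33 on the log2 scale, adjusted p = 0.00016), *Fosb* (2.89 ± 0.57, 0.00494), *Egr1* (2.56 ± 0.58, 0.00901) and *Junb* (1.28 ± 0.32, 0.0153) were higher, where 13.1% of genes were higher. MGE interneuron-like cells had 10 and 10 UMIs of *Fosb*, 13 and 17 of *Egr1* and 15 and 13 of *Junb*. Their *Fosb* and *Egr1* levels in replicate 1 lay under the red blood cell-like floor given above, as did each of the higher genes in projection neuron-like cells. *Ier2* was lower (-1.83 ± 0.46, 0.0151), where 22% of genes were lower. *Jun* differed by -0.28 ± 0.11 (0.0686, or 0.0481 with the replicate block), *Hspa1a* by -0.98 ± 0.65 (0.284) and *Hspa1b* by -0.19 ± 0.34 (0.75). The MGE interneuron-like cells were shallower, with median depths of 4519 and 4018.5 UMIs against 11116 and 10892, and had a higher mitochondrial share (medians 4.97% and 5.79% against 3.08% and 3.5%). With cells of at least 3000 UMIs and under 5% mitochondrial UMIs, *Egr1* (1.84, adjusted p = 0.156) and *Ier2* (-1.66, 0.0521) kept their direction and were no longer called. With cells thinned to 3000 UMIs the same held for *Junb* (1.09, 0.0969).

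The rarer classes were set against the mean on the log scale of RGC-like, IPC-like and projection neuron-like cells, over 13115 genes. In pericyte-like cells, the mural cells of small vessels, 10 members were higher, where 22.2% of genes were higher and 20.9% lower. The differences ran from 0.88 ± 0.25 for *Jun* (adjusted p = 0.0082) to 5.92 ± 0.29 for *Junb* (1.58e-11), with *Fosb* at 5.59 ± 0.56, *Egr1* at 4.66 ± 0.39 and *Fos* at 4.29 ± 0.44. In endothelial-like cells 9 members were higher (23% of genes higher, 21.1% lower), led by *Atf3* (4.99 ± 0.53, adjusted p = 6.61e-07), *Junb* (4.84 ± 0.35), *Fosb* (4.64 ± 0.67) and *Hspa1b* (4.24 ± 0.3); *Egr1* was at 1.5 ± 0.73 (0.105). In meningeal-like cells, fibroblasts of the brain covering, 9 members were higher (26.8% of genes higher, 24% lower), led by *Fosb* (5.23 ± 0.48, adjusted p = 5.76e-08), *Egr1* (4.2 ± 0.34) and *Fos* (3.7 ± 0.4), and *Dusp1* was at -0.18 ± 0.5 (0.798). The medians over members were 3.71, 3.35 and 2.23, against -0.11, -0.11 and -0.04 over all genes. These comparisons share their reference cells, and differences between the 3 classes were not tested. The median mitochondrial share was 3.77% and 4.18% in pericyte-like, 4.09% and 4.81% in endothelial-like, 4.27% and 4.59% in meningeal-like and 4.28% and 3.77% in microglia-like cells, above the 2.57% to 3.5% of the 3 neural classes, and its part in these differences was not tested. With thinned cells the calls of *Atf3* (2.16, adjusted p = 0.116) and *Dusp1* (1.48, 0.119) were lost in pericyte-like cells, of *Fos* (2.08, 0.138) in endothelial-like cells and of *Hspa1a* (0.93, 0.307) and *Hspa1b* (0.88, 0.201) in meningeal-like cells. *Ier2* in meningeal-like cells was not called with DESeq2 (0.97, 0.0719) or at Leiden resolution 0.5 (0.77, 0.057).

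**Figure D2:**
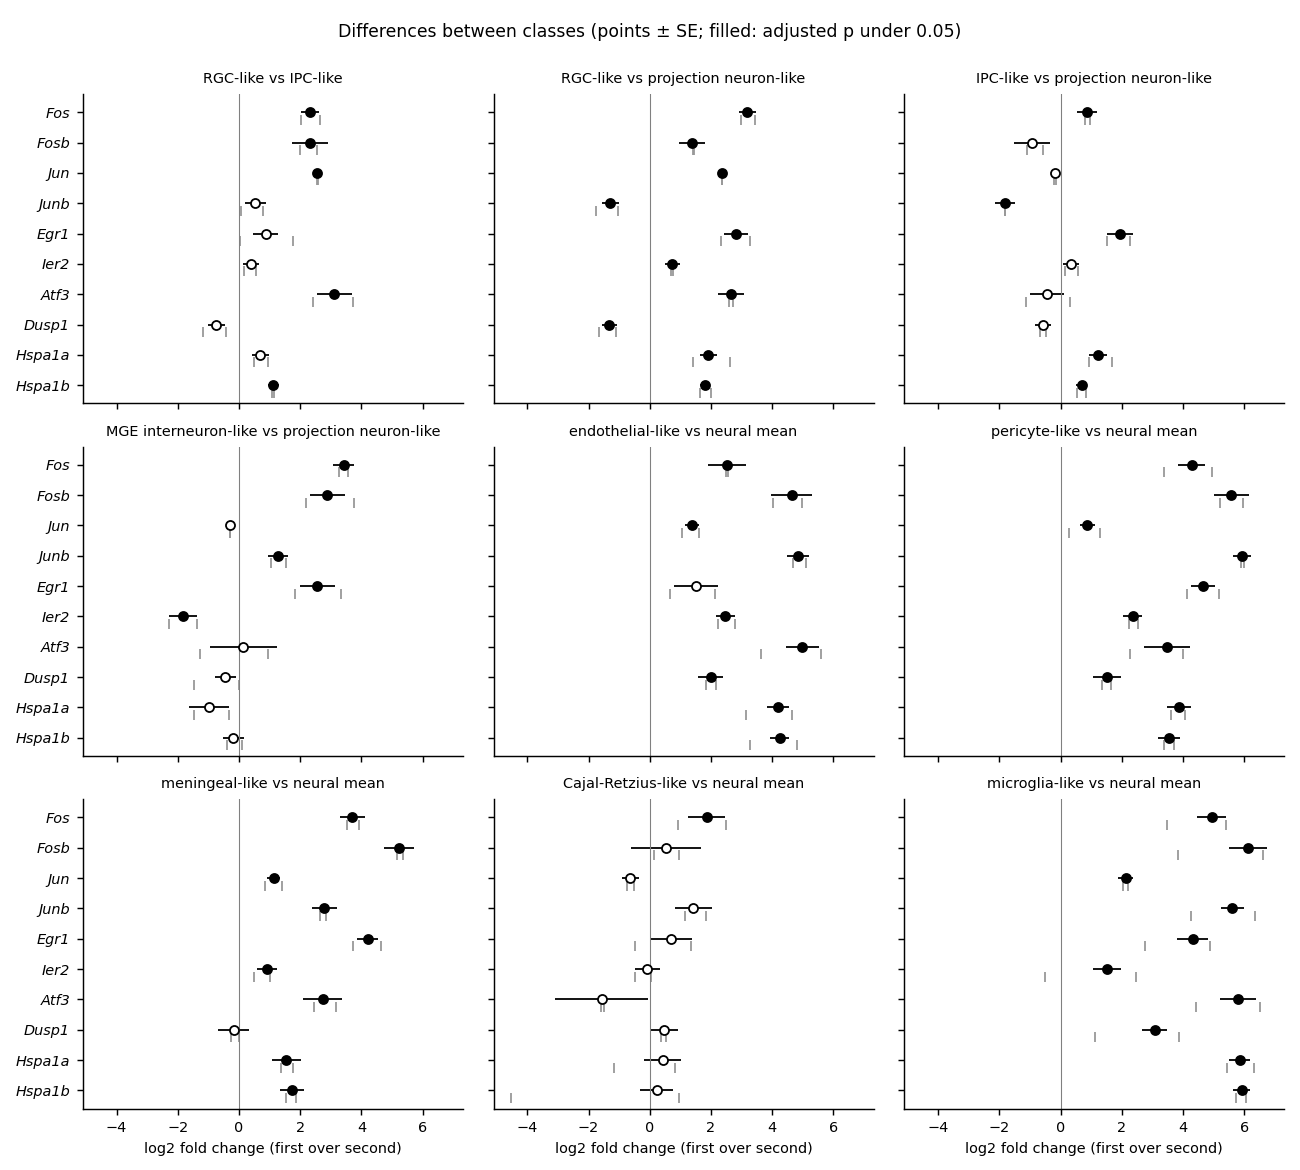
Each panel is 1 comparison; the x axis is the log2 fold change of the first class over the second, with bars of ± SE (2 replicates a class), filled points for an adjusted p under 0.05 and grey ticks for each replicate alone. The filled points lie to the right of 0 in all 10 rows for pericyte-like and microglia-like cells, and on both sides of 0 against projection neuron-like cells.

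*Junb* and *Egr1* had unlike orders over the non-neural classes. *Junb* was at 120 and 146 CPM in pericyte-like cells and 67.2 and 53.6 CPM in endothelial-like cells, but at 12.3 and 15.9 CPM in meningeal-like cells. *Egr1* was at 109 and 174 CPM in pericyte-like and 82.1 and 117 CPM in meningeal-like cells, but at 9.34 and 19.3 CPM in endothelial-like cells. None of the low ranges overlapped the high ones.

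Cajal-Retzius-like cells, the early neurons of the marginal zone, had 1 member higher, *Fos* (1.86 ± 0.6 on the log2 scale, adjusted p = 0.0236), where 18.4% of genes were higher and 15.1% lower. Its level was 53.5 CPM in replicate 1 and 12.3 CPM in replicate 3, a ratio of 0.231 between the libraries (exact 95% interval 0.115 to 0.438). The difference in replicate 1 alone was 2.5 and in replicate 3 alone 0.91, and with thinned cells the call was lost (1.4, adjusted p = 0.268). *Hspa1a* went the other way, with 4.46 CPM (3 UMIs) and 25.6 CPM (29 UMIs).

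In microglia-like cells all 10 members were higher than the neural mean (19.9% of genes higher, 17.6% lower), from 1.52 ± 0.45 for *Ier2* (adjusted p = 0.0126) to 6.13 ± 0.62 for *Fosb* (3.34e-07). The 2 libraries differed in size of most of these. *Fos* was at 364 and 63.4 CPM, *Fosb* at 152 and 13.3 and *Ier2* at 125 and 20.02 CPM, and *Dusp1* had 67 and 9 UMIs. Of the 10 members, 7 were more than 1.5-fold lower in replicate 3, against 19.5% of 5301 genes with at least 20 UMIs, and 0 were higher, against 14.8%. The ratios ran from 0.0876 (exact 95% interval 0.023 to 0.238) for *Fosb* to 1.04 for *Jun*, whose levels were 385 and 400 CPM. The 3 members within 1.5-fold were *Jun* and both HSP70 copies. In replicate 3 alone *Ier2* was below the neural mean (-0.51 on the log2 scale), and with cells thinned to 3000 UMIs its call was lost (0.85, edgeR adjusted p = 0.371). The median depth of these cells was 15129 and 8149 UMIs, and the part of depth in this was not tested.

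RGC-like and endothelial-like cells had fewer members past 1.5-fold between libraries. In RGC-like cells 1 member was past 1.5-fold higher in replicate 3 (*Junb*, 11 and 38 UMIs), against 5.53% of 14603 genes, and 1 lower (*Fosb*, a ratio of 0.49, interval 0.295 to 0.817), against 7.4%. In endothelial-like cells 3 of 9 members with 20 UMIs or more were higher in replicate 3 (11.3% of 7509 genes) and 1 lower (12.4%): *Atf3* (ratio 4.05, 1.68 to 11.8), *Hspa1a* (3.54, 2.58 to 4.96) and *Hspa1b* (2.57, 1.79 to 3.77) were higher and *Fosb* lower (0.311, 0.139 to 0.652). These compare 2 libraries of 1 group and not conditions.

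**Figure D3:**
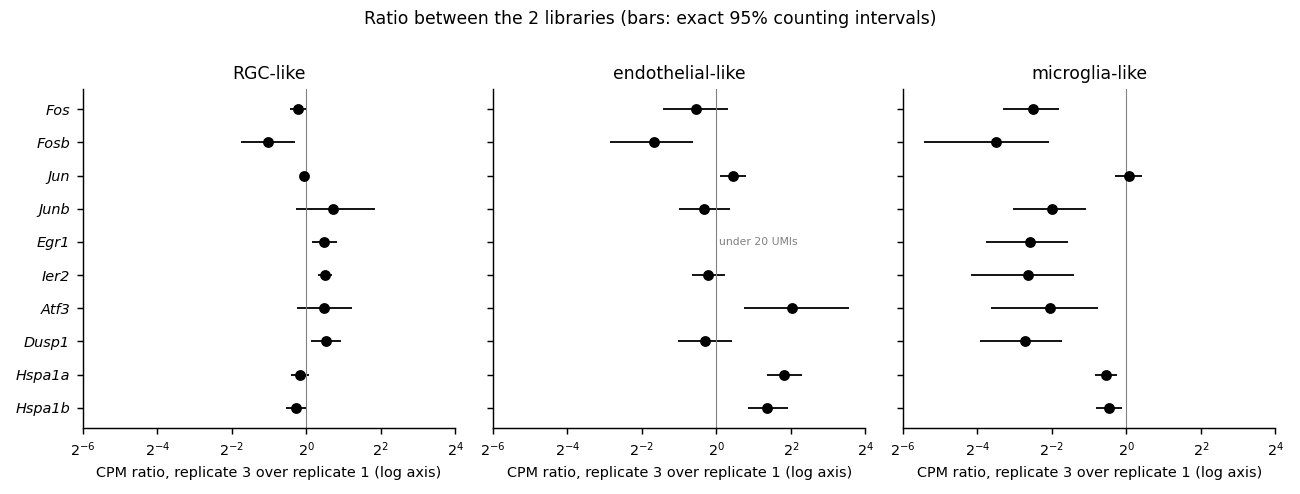
The x axis is the ratio of the CPM in replicate 3 to that in replicate 1 on a log axis, the y axis the gene, and the bars are exact 95% counting intervals. In microglia-like cells 7 of the 10 points lie far to the left of 1, while those of *Jun*, *Hspa1a* and *Hspa1b* lie near it.

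Within the RGC-like class the members were not spread evenly over clusters. The cluster led by *Ltbp1*, *Gabrb1* and *Kcnip1* (72 and 320 cells) had 102 and 64.2 CPM of *Fos*, 50.4 and 24.3 CPM of *Egr1* and 85.9 and 42.2 CPM of *Hspa1a*. The 3 other RGC-like clusters, led by *Mt3*, *Hist1h1b* and *Cenpa*, had *Fos* levels of 2.8 to 29.4 CPM, *Egr1* levels of 3.3 to 19.5 CPM and *Hspa1a* levels of 13.2 to 21.0 CPM. The *Ltbp1*-led cluster was thus above every other RGC-like cluster for these 3 genes in both libraries, while *Jun* was at 378 and 259 CPM in it and at 237 to 362 CPM in the others. Its median mitochondrial share was 2.98% and 3.51%, the highest of the 4 RGC-like clusters in both libraries, where the others ran from 2.43% to 2.82% and from 2.96% to 3.21%. Clusters are a description, with no test. With that cluster, chosen for its levels, left out, *Fos*, *Fosb*, *Jun*, *Atf3* and *Hspa1b* were still called against IPC-like cells (*Fos* higher by 1.8 on the log2 scale, adjusted p = 0.00216), and against projection neuron-like cells the call of *Fosb* was lost (1.15, 0.0778) and the other 9 were kept.

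IPC-like cells had a contrast of their own in *Jun*. The cluster led by *Gadd45g*, *Neurog2* and *Smoc1*, of which NEUROG2 is a neurogenic transcription factor, had 123 and 99.0 CPM. The cluster led by *Kif26b* and *Eomes* had 18.4 and 14.7 CPM and the one led by the cycle gene *Cenpe* had 29.6 and 33.6 CPM. *Fos* stood in the same order at 16.4 and 8.4, 2.2 and 1.6, and 3.2 and 0.0 CPM.

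**Figure D4:**
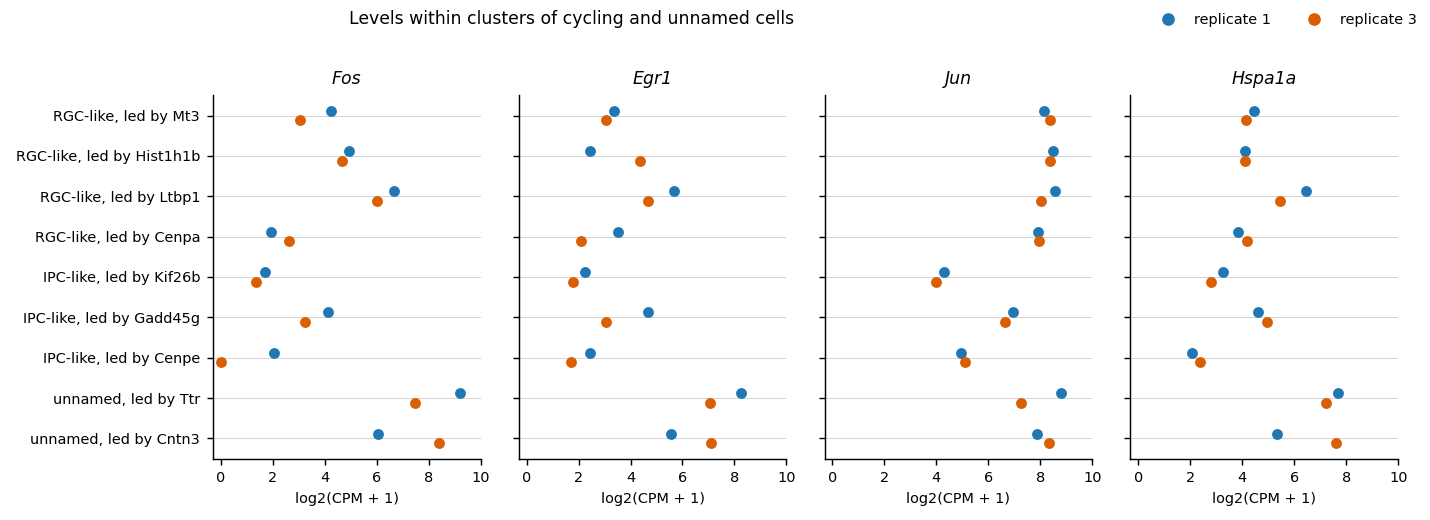
The x axis is log2(CPM + 1) and the y axis the cluster, named by its class and first gene, with a point for each replicate. *Fos*, *Egr1* and *Hspa1a* lie farther right in the *Ltbp1*-led than in the other RGC-like clusters, and farther still in the unnamed *Ttr*-led cluster. *Jun* separates RGC-like from IPC-like clusters.

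Cell cycle phase was compared in RGC-like cells thinned to 3000 UMIs, over 9404 genes that are not themselves phase markers, and 6 members passed the filter on low counts. Between S and G1 cells edgeR called 0 of the 6, where 4.44% of genes were higher and 0.968% lower in S; at an unadjusted p under 0.05 1 member (*Fos*) was lower, and DESeq2 also called 0. Between G2M and G1 cells *Fos* was lower in G2M (-1.47 ± 0.28 on the log2 scale, adjusted p = 0.00634), where 4.6% of genes were higher and 1.31% lower. Its levels were 45.4 and 40.9 CPM in G1, 33.5 and 21.7 in S and 12.5 and 14.9 CPM in G2M. *Hspa1a* ran in the same order, at 40.1 and 32.4, 26.8 and 19.0, and 11.2 and 18.1 CPM, and its difference in G2M was -1.08 ± 0.3 (adjusted p = 0.0535, or 0.00806 with the replicate block, which gave 2 calls). *Jun* was at 323 and 333 CPM in G1 and 328 and 308 CPM in G2M. The call of *Fos* was lost with DESeq2 (-1.62, 0.0646). In the *Ltbp1*-led cluster, singled out above after its *Fos* level was seen, 68.1% and 55.8% of the cells were scored G1 and 2.9% and 7.47% G2M. Leaving it out takes high-*Fos* cells mostly from G1, and the difference was then -0.19 (adjusted p = 0.88).

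UMIs of *Fos* were gathered in few RGC-like cells. The 7 cells with the most *Fos* UMIs, 1% of the class in replicate 1, held 35.3% of them, with up to 21 UMIs in a cell, and the top 15 cells of replicate 3 held 22.8%. For *Jun* the same shares were 4.76% and 4.02%. With cells thinned to 3000 UMIs, 34 of 657 RGC-like cells (5.18%) and 89 of 1507 (5.91%) had a UMI of *Fos*, against 0 of 49 and 0 of 63 red blood cell-like cells, which allows shares of up to 6.12% and 4.76%, so in replicate 1 a difference was not detectable at this depth. The unthinned shares were 13.3% and 16.2% against 2.99% and 0.909%. *Ier2* was found in 23.5% of the cells with a *Fos* UMI and 9.31% of those without in replicate 1, and in 24.7% and 11.4% in replicate 3. *Fosb* was found in 11.8% against 0.321% and in 3.37% against 0.141%, on 4 and 3 cells that had both. For *Jun* the shares were 67.7% against 53.3% and 57.3% against 57.8%, and the intervals overlapped in both libraries. *Hspa1b* was found in 17.1% of the cells with a *Hspa1a* UMI and 3.54% of those without in replicate 1, and in 10.6% and 2.74% in replicate 3. Cells of 1 library are not replicates, so these are descriptions.

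**Figure D5:**
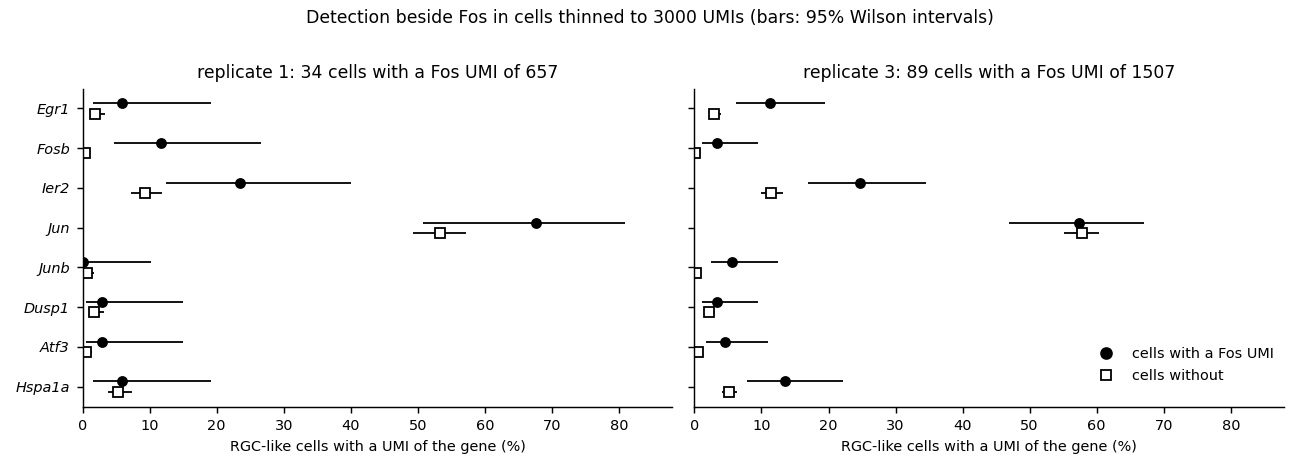
The x axis is the percentage of RGC-like cells (thinned to 3000 UMIs) with a UMI of the gene on the y axis, for cells with a *Fos* UMI (filled) and without (open), with 95% Wilson intervals and 1 panel for each replicate. *Fosb* and *Ier2* lie farther right beside *Fos* in both panels, and *Jun* overlaps.

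Mitochondrial share moved with part of the list. When RGC-like cells of each library were put into 4 bins of equal size by mitochondrial share (medians from 1.94% to 3.64% and from 2.22% to 4.36%), 7 of the 10 members had their highest level in the top bin of both libraries, *Fos*, *Fosb*, *Egr1*, *Ier2*, *Atf3*, *Hspa1a* and *Hspa1b*, as did 10.7% of 14603 genes with at least 20 UMIs. Of these 7, the exact 95% interval in the top bin lay above those of the 3 other bins for *Hspa1a* alone in replicate 1 and for *Fos* alone in replicate 3, and *Atf3* had 7 UMIs in the top bin of replicate 1. *Fos* went from 21.2 CPM in the lowest bin to 36.6 in the highest in replicate 1 and from 23.2 to 44.8 CPM in replicate 3, and *Ier2* from 21.6 to 49.0 and from 34.3 to 59.9 CPM. *Jun* was at 296 and 308 CPM and at 298 and 294 CPM in the same bins. In projection neuron-like cells 3 members were highest in the top bin of both libraries, *Fosb*, *Jun* and *Junb*, a share near the 28.7% of 15884 genes. With bins by UMIs per cell, 0 members in RGC-like cells (10.6% of genes) and 2 in projection neuron-like cells (*Fos* and *Jun*, against 8.56% of genes) were. With cells of at least 3000 UMIs and under 5% mitochondrial UMIs, 41 of the 43 called differences between classes that were refitted stayed called. Endothelial-like and microglia-like cells were not refitted, because 18 and 15 cells of replicate 1 were left, under the 20 needed. Their differences are thus not covered by this filter. The medians of mitochondrial share were 2.61% and 3.18% in RGC-like, 2.57% and 3.13% in IPC-like and 3.08% and 3.5% in projection neuron-like cells. The RGC-like medians lay above the IPC-like and below the projection neuron-like ones in both libraries, and the part of mitochondrial share in the class differences was not tested.

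Lists of related genes were counted in the same fits, and the shares of all genes called stand beside the counts. Of 37 other immediate early genes, 30 were tested between RGC-like and IPC-like cells, of which 13 were higher (21.9% of all genes) and 6 lower (21.4%), with a median of 0.69 on the log2 scale. *Ccn1* (4.39 ± 0.17, adjusted p = 1.1e-06) and *Ccn2* (3.59 ± 0.48, 0.000773), matricellular targets of YAP and SRF, led the first, and *Gadd45g* (-3.35 ± 0.3, 5.59e-05) and *Plk3* (-2.12 ± 0.4, 0.00295) the second. Against projection neuron-like cells 10 were higher (29.6% of all genes) and 13 lower (35.7%; median -0.03), with *Plk2* at -5.3 ± 0.27 and *Nr4a3* at -3.94 ± 0.18 as the lowest. In pericyte-like cells 16 of 30 were higher (22.2% of all genes) and 1 lower (20.9%), with *Gadd45b* at 6.3 ± 0.31 and *Klf2* at 5.72 ± 0.49. The corresponding counts were 18 and 2 in endothelial-like (23% and 21.1% of all genes), 18 and 4 in meningeal-like (26.8% and 24%) and 17 and 2 in microglia-like cells (19.9% and 17.6%). In MGE interneuron-like against projection neuron-like cells 1 of 30 was higher, *Nr4a1* (2.01 ± 0.38, 0.004), against 13.1% of all genes, and 8 were lower, near the 22% of all genes.

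The feedback list, phosphatases, Sprouty proteins and RNA decay factors that end the response, had 10 of 19 tested genes higher in RGC-like cells (21.9% of all genes) and 3 lower (21.4%) against IPC-like cells, with *Spry2* at 2.42 ± 0.4, *Zfp36l1* at 2.41 ± 0.22 and *Dusp4* at -3.52 ± 0.21. Against projection neuron-like cells 10 were higher (29.6% of all genes) and 5 lower (35.7%), with *Zfp36l1* at 6.66 ± 0.28 and *Dusp6* at -3.08 ± 0.28. DUSP6, like DUSP1, is a MAP kinase phosphatase. Of 24 upstream kinases and factors 3 were higher (21.9% of all genes) and 10 lower (21.4%) against IPC-like cells, and 3 (29.6%) and 13 (35.7%) against projection neuron-like cells, where the kinase genes *Mapk10* (-4.64 ± 0.39) and *Mapk8* (-1.9 ± 0.11) were lowest and *Elk3* (3.8 ± 0.23), an SRF partner, highest. In pericyte-like cells 22.2% of all genes were higher and 20.9% lower, and the counts were 13 higher and 4 lower of 21 feedback genes, with *Spry4* at 6.69 ± 0.38 and *Spry1* at 5.22 ± 0.27, and 5 and 6 of 23 upstream genes, the latter near the shares over all genes.

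Heat shock and chaperone genes other than the 2 members were mixed. Of 31 tested, 12 were higher in RGC-like cells (21.9% of all genes) and 5 lower (21.4%) when set against IPC-like cells, and 17 were higher (29.6%) and 5 lower (35.7%) than in projection neuron-like cells, where *Bag3*, the co-chaperone that works with HSP70, was at 3.85 ± 0.36 (adjusted p = 4.43e-05) and *Hspb8* at 3.02 ± 0.38 (0.000141), while *Hspa12a* (-5.05 ± 0.16) and *Cryab* (-3.2 ± 0.36) were lower. In MGE interneuron-like cells 21 of 31 were lower than in projection neuron-like cells (22% of all genes) and 0 higher (13.1%), also at an unadjusted p under 0.05. In microglia-like cells 8 were higher, near the 19.9% of all genes, and 3 lower (17.6% of all genes), with *Bag3* at 6.24 ± 0.4 and *Hsph1* at 1.83 ± 0.26. Of 11 tested integrated stress response genes, 2 were higher and 2 lower against IPC-like cells (*Asns* 0.97 ± 0.24, *Ddit4* -1.62 ± 0.12), near the 21.9% and 21.4% of all genes, and 3 (29.6% of all genes) and 6 (35.7%) against projection neuron-like cells. Cajal-Retzius-like cells, which had 1 member higher, had 8 of 12 integrated stress response genes higher (18.4% of all genes) and 1 lower (15.1%) than the neural mean, led by *Sesn2* (3.13 ± 0.46, 4.02e-05) and *Gdf15* (2.33 ± 0.69, 0.0212).

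The genes most like *Fos* over the 20 class sums (10 classes in 2 libraries), by Pearson's r of log2(CPM + 1) over 10128 genes, were *Rab43* (0.869), *Il6st* (0.84), *Plxdc2* (0.835), *Acaa1a* (0.832) and *Itpripl2* (0.826). Those most like *Hspa1a* were *Dnajb1* (0.943), the HSP40 partner of HSP70, *Bag3* (0.92), *Cyba* (0.919), *Nudt9* (0.917) and *Dynlt3* (0.912). Sums of 1 library share its depth and preparation, so these are descriptions.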

How the data were processed

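Whole-number UMI counts per gene and barcode (10x 3′ chemistry, Cell Ranger 7.0.0 and mm10 per the labels) were deposited by the authors as 1 matrix per library and were used as deposited. Cells needed 1500 to 60000 UMIs and a mitochondrial share below 10%, and predicted doublets were removed (scrublet in scanpy 1.11.5), leaving 5184 and 6952 cells. Cells were clustered on 2000 variable genes (30 components, 15 neighbours, Leiden resolution 1, leidenalg 0.10.2), with the members and lists left out, and clusters were named from at least 3 markers. The rule that leaves clusters of low UMI depth unnamed was chosen after their leading genes had been seen. Counts were summed per class and replicate and fitted with edgeR 4.0.16 (TMM, quasi-likelihood, Benjamini-Hochberg over all genes tested, R 4.3.3). DESeq2 1.42.0 was an alternative. A gene was called at an adjusted p under 0.05, and low genes were dropped by filterByExpr. All 10 members are named, and of each further list at most 2 genes per direction, those with the largest change. The edgeR script was tested on simulated data. Depth was 64182006 and 93295807 UMIs. The libraries were no copies of each other (chi-square of 86.6 per gene).

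The members, lists and tests were chosen with earlier results of these data known, and the fits without the microglia-like sums and without the *Ltbp1*-led cluster were added after seeing the data. Class sums with the same replicate number come from 1 library, and their deviations correlated at 0.0665 to 0.453 over 10138 genes. *Ddit3*, listed under 2 identifiers, was left out.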

Additional observations from a re-analysis of the deposited data

Results flagged for a closer look

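Barcodes left out by the filters also held UMIs of the members. The 10 members summed to 213 CPM in the kept cells of replicate 1 and to 259 CPM in those of replicate 3. Barcodes with 10% or more mitochondrial UMIs had 196 and 183 CPM, barcodes under 1500 UMIs had 263 and 237 CPM, and predicted doublets had 248 and 272 CPM.

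*Fos* was high in cells that stayed outside every named class. In the unnamed cluster led by *Ttr*, *Htr2c* and *Rspo2* (13 and 96 cells) its level was 588 CPM in replicate 1 and 178 CPM in replicate 3. In the unnamed cluster led by *Cntn3*, *Gm29478* and *Sfta3-ps* (10 and 48 cells) it was 65.9 and 340 CPM. These clusters entered no comparison between classes.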

How the results depend on the processing

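Over the alternatives with a test, 639 of 667 called values of members kept their direction and stayed past the threshold, 28 kept the direction and lost the threshold, and 0 changed direction. Of 336 values that were not called, 29 became called. Thinning to 3000 UMIs per cell lost most calls, 14 of 62, and the cause was not tested. The number of members called in RGC-like against IPC-like cells moved from 5 to 8 with no filter on low counts, to 8 with the replicate block and to 2 with thinned cells. In IPC-like against projection neuron-like cells it moved from 5 to 3 with doublets kept, with thinned cells and with all classes in 1 fit, and in MGE interneuron-like against projection neuron-like cells from 5 to 3 with the stricter filter on cells. In Cajal-Retzius-like cells it moved from 1 to 2 with DESeq2, without the microglia-like sums and without the *Ltbp1*-led cluster, to 3 with no filter, the stricter filter or doublets kept, and to 0 with thinned cells. It moved from 0 to 2 between S and G1 in cells not thinned, and between G2M and G1 from 1 to 2 with no filter, the replicate block or cells not thinned, and to 0 with DESeq2 and without the *Ltbp1*-led cluster. The replicate block also called *Jun* lower in MGE interneuron-like cells (-0.29, edgeR adjusted p = 0.0481) and changed no other call beyond those given in the report. The mean share of RGC-like cells with a UMI of *Fos* was 14.7% without thinning and 3.06% at 1500 UMIs, and that of *Jun* 89.6% and 35.4%.

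Values on the log2 scale that changed sign belonged to members that were not called. They were *Junb* in RGC-like against IPC-like cells (-0.13 without the *Ltbp1*-led cluster), *Jun* in IPC-like against projection neuron-like cells (0.0088 with members among the clustering genes), and, with doublets kept, *Hspa1b* in MGE interneuron-like cells (0.48) and *Dusp1* in meningeal-like cells (0.043). In Cajal-Retzius-like cells they were *Junb* (-1.44, thinned), *Ier2* (0.075 with library sizes only, 0.089 with doublets kept, 0.31 thinned) and *Hspa1b* (-0.040 with the stricter filter, -0.47 thinned). Between phases they were *Fos* in S (0.41 without the *Ltbp1*-led cluster) and, in cells not thinned, *Jun* (0.039) and *Ier2* (-0.013) in G2M. Leaving out a replicate gives values with no test. Of 65 called values 64 kept their sign without replicate 1 and 65 without replicate 3. *Ier2* in microglia-like cells was the exception, with -0.51 and 2.49.

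With library sizes only, the share of higher among all called genes went from 45.3% to 58% in RGC-like and from 46.9% to 57.7% in IPC-like against projection neuron-like cells, from 37.4% to 53.2% in MGE interneuron-like cells and from 54.9% to 68.1% in Cajal-Retzius-like cells. With DESeq2 it went from 37.4% to 47.6% in MGE interneuron-like, from 51.4% to 62.1% in pericyte-like and from 53.1% to 66.7% in microglia-like cells, and from 77.9% to 90.4% in G2M against G1. The median of all genes moved by up to 0.24. The rarer classes held 21 to 146 cells per library. Low counts limit what could be detected in Cajal-Retzius-like cells, which had no UMI of *Atf3* and 2 and 1 UMIs of *Fosb*. *Atf3* also had 2 UMIs in pericyte-like cells of replicate 1. The folds of both genes in the rarer classes rest in part on few UMIs in IPC-like reference cells (*Atf3* 2 and 1, *Fosb* 3 and 3).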
